A study of Arabidopsis thaliana with 75 samples.

Results

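The mRNA of mta seedlings was compared with that of Col-0 seedlings after both had been held in 1 µM flg22 for 4 h. Col-0 is the wild-type Arabidopsis thaliana accession, and mta is a mutant of MTA, the catalytic subunit of the enzyme complex that writes N6-methyladenosine (m6A) into mRNA. The members were the 3 mta and the 3 Col-0 mRNA libraries that the labels place under flg22, 6 of the 75 samples of the series, and within them the 32844 gene loci of the 62925 annotated features. After a filter on low counts 19887 loci were tested. Seedlings were whole plants of 14 days, with liquid medium added to their plates the day before. The untreated groups of both genotypes, 3 libraries each, entered the same fit, and from the labels their time of harvest could be that of the start or of the end of treatment. The labels give neither the allele of mta nor how its plants were kept alive, although full loss of MTA is known to stop embryo development, and how much MTA activity was left was not tested. They also do not say whether replicates were separate cultures, so p-values measure the spread between these samples, which may be technical.

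m6A is the most common internal mark of plant mRNA. It is written by a complex around MTA and MTB, removed by ALKBH demethylases and bound by YTH-domain readers of the ECT family, and it can alter how long an mRNA lasts. flg22 is a peptide of bacterial flagellin that the receptor kinase FLS2 and its co-receptor BAK1 perceive. This starts pattern-triggered immunity (PTI), in which calcium, reactive oxygen and MAP kinases lead to WRKY factors, indole-derived defence compounds and defence hormones, while photosynthesis genes are turned down.

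The labels were checked on MTA first. The MTA locus AT4G10760 had 0 mRNA counts in all 12 seedling libraries, and the locus AT4G05815 of the same strand covers 99.2% of it. AT4G05815 stood at 22.3, 22.6 and 21.8 CPM (counts scaled to the effective size of each library) in the Col-0 libraries and at 15.3, 15.2 and 17.2 in the mta libraries. The groups did not overlap, and the level was lower in mta (log2 fold change −0.48 ± 0.14 SE, edgeR quasi-likelihood adjusted p = 0.0075). Whether reads shared with MTA were counted for AT4G05815 was not tested, so this level may not measure MTA mRNA. Uncapped RNA of MTA itself was 9.53, 13.4 and 10.3 RPM (reads scaled to the depth of each library) in Col-0 and 6.59, 5.23 and 6.60 in mta, a difference of −0.75 ± 0.26 that did not pass (limma adjusted p = 0.12).

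The 12 mRNA libraries held 9442047 to 13222937 counts on gene loci. One library stood apart: in Col-0 flg22 replicate 1, the noncoding feature At3NC056200 took 5.12% of all counts, against 0.303 to 0.998% in the other 11, and chloroplast-encoded loci took 0.246% of gene counts against 0.0323 to 0.0483%. Whether the counts separate the strands was not tested, so a gene may not be told apart from another that overlaps it on the opposite strand. MTA, with 99.2% under a locus of the same strand, had 0 counts. CYP81F4 and RPS2, wholly under a locus of the other strand, had counts. The sources used here do not say how reads shared by near-identical genes were counted. Values of close copies such as TSB1 and TSB2, CYP82C2 and CYP82C3, the IGMT genes, the LHCB genes and the small heat shock genes may therefore be split between them or lost. LHCB1.1, LHCB1.2, GSTU1 and GSTU2 had 0 counts in all 12 libraries.

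mta and Col-0 differed in many genes under flg22. Of the 19887 tested, 7565 passed an adjusted p of 0.05 by edgeR quasi-likelihood with Benjamini-Hochberg adjustment, which is 38%. In mta 3599 genes were higher (18.1%) and 3966 lower (19.9%). This balance depended on the scaling, with 4061 higher and 3537 lower by upper quartile scaling and 3210 and 4385 by DESeq2 size factors. At least 2-fold, 1080 were higher (5.43%) and 443 lower (2.23%), and at least 4-fold 204 were higher (1.03%) and 44 lower (0.221%). The 3 mta values lay wholly above or below the 3 Col-0 values in 6998 of the genes that passed and in 44.9% of all tested genes. The median log2 fold change over all tested genes was 0.03. Of the 16 other settings of filters, scalings, tests and libraries tried, testing every annotated feature moved the number of calls most, to 11406.

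The genes raised most in mta were led by heat shock genes. By a rule that asked for separate groups, at least 5 CPM and little overlap with other loci, the 15 largest increases held 6 members of the heat shock list, described below, and the small heat shock gene HSP17.6A, at 15.1, 18.7 and 16.9 CPM in Col-0 and 109, 102 and 108 in mta (2.66 ± 0.11, adjusted p = 1.4e-20). LAC7, a laccase, stood at 11.6, 8.87 and 9.82 CPM in the Col-0 libraries and 109.5, 113 and 106 in the mta libraries (3.43 ± 0.13, edgeR adjusted p = 3.7e-21). All 3 mta libraries lay far above Col-0. LAC7 is at chromosome 3, 2827183 to 2830655, minus strand, on TAIR10. ABCG30, an ABC transporter, went from a mean of 1.92 to 10.1 CPM (2.398). NET2D, an actin-binding protein, went from 1.69 to 9.99 (2.57), and AGD2, an ARF GTPase-activating protein, from 1.84 to 10.1 (2.43). The other 4 were AT2G30660 (2.79), AT1G52560 (2.73), AT2G29500 (2.40) and AT1G67120 (2.31), for which the annotation table used gives no symbol.

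QQS, a short gene of Arabidopsis known to affect starch content, was lowered most. It stood at 12.2, 10.9 and 8.402 CPM in Col-0 and at 0.479, 1.05 and 1.46 in mta (−3.41 ± 0.39, edgeR adjusted p = 8.0e-09), and was as low in untreated mta (−3.41). BAM5, a beta-amylase, had 15.9, 13.7 and 16.1 CPM in Col-0 and 4.31, 1.58 and 2.703 in mta (−2.39 ± 0.24, adjusted p = 3.2e-10). The groups of both genes were far apart. UGT84B1, which in vitro glucosylates auxin, went from 7.71, 11.8 and 7.75 to 1.53, 1.79 and 3.53 CPM (−1.99 ± 0.38, adjusted p = 8.1e-05). Other lowered loci were AT4G22640 (−2.71), AT3G24420 (−2.37), AT5G55150 (−2.23), AT1G23140 (−1.88), AT4G08555 (−1.86), AT1G79075 (−1.79) and AT2G32020 (−1.79).

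The remaining 5 of the 15 largest decreases were organelle-encoded and depended on 1 library for their size. ATCG00490 stood at 681, 82.8 and 88.6 CPM in the Col-0 libraries and 52.9, 43.3 and 38.4 in mta (−2.67). Col-0 flg22 replicate 1 was several times above both its replicates, and without it the difference was −0.97. The same held for ATCG00020 (−2.59, −0.84 without it), ATCG00280 (−2.102, −0.48), ATCG01050 (−2.08, −0.88) and ATMG00030 (−2.37, −0.52). The last of these did not pass without that library (adjusted p = 0.061), nor did ATCG01050 (0.15). Of 56 chloroplast loci tested 31 were lower and 0 higher in mta with all libraries, and 8 passed without Col-0 flg22 replicate 1, where the median moved from −1.29 to −0.43. For 22 mitochondrial loci the counts were 11 lower with all libraries and 2 passing without it.

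Among the most abundant genes that differed at least 2-fold, EXT3, a cell wall extensin, stood at 3159, 2821 and 2547 CPM in Col-0 and 5783, 5648 and 6358 in mta (1.06 ± 0.065, edgeR adjusted p = 1.4e-15). AT4G12490 was also higher (1.14), from 865 ± 85.5 to 1904 ± 18.7 CPM (SD, n = 3). AT4G01700 (−1.09), AT5G35735 (−1.02) and AT1G02360 (−1.01) were lower, from means of 2269, 1668 and 1306 CPM in Col-0 to 1063, 823 and 648 in mta. A locus on the other strand lies over 28.6% of EXT3, 35.9% of AT4G12490 and 92.4% of AT4G01700.

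**Figure D1:**
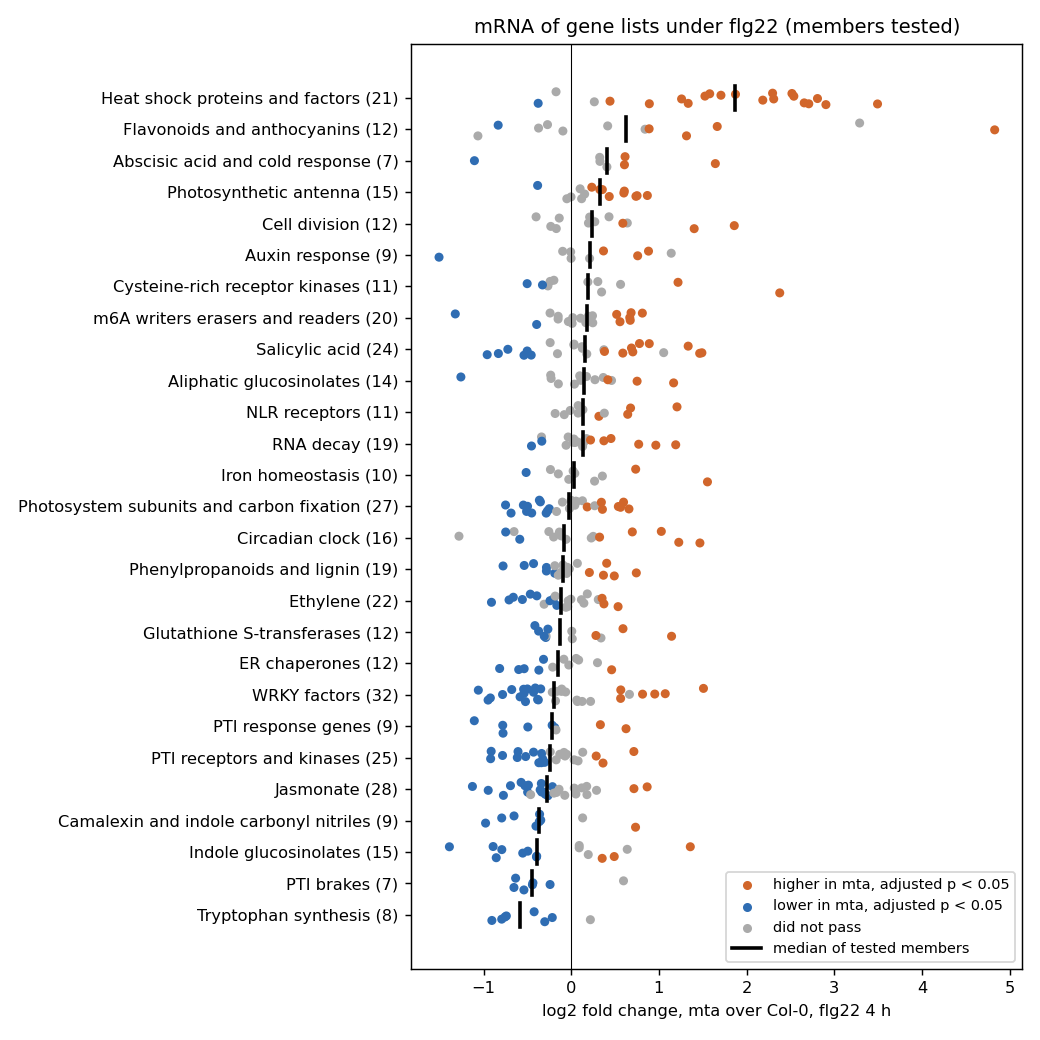
Log2 fold change of mRNA in mta over Col-0 under flg22 (x axis) for each tested member of 27 gene lists (rows, with the number tested), points coloured by direction where the edgeR adjusted p was under 0.05. The heat shock list lies to the right, with a median of 1.87, and tryptophan synthesis furthest to the left, at −0.58.

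Heat shock genes were higher in mta as a group. Of 21 members tested, 18 rose and 1 fell, against 18.1 and 19.9% of all genes, with a median log2 fold change of 1.87 against 0.03 for all genes. HSP70B, an inducible cytosolic HSP70 chaperone (chromosome 1, 5501966 to 5504535, minus strand), stood at 15.6, 15.1 and 10.4 CPM in the Col-0 libraries and 155, 155 and 154 in the mta libraries. The mta libraries were alike and all about an order of magnitude above Col-0 (3.49 ± 0.11, edgeR adjusted p = 2.4e-23). HSP17.6II, a small heat shock protein that holds unfolded proteins, had 17.3, 16.1 and 14.3 CPM in Col-0 and 123, 120.0 and 115 in mta (2.904 ± 0.103, adjusted p = 2.8e-22). ATHSP22.0, a small heat shock protein of the endomembrane system, went from 4.72, 6.13 and 4.26 to 35.6, 37.5 and 32.5 CPM (2.81 ± 0.16). The groups did not overlap in any of these genes.

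Chaperones of other classes moved the same way. HSP101, the disaggregase that rescues aggregated proteins, rose from 16.7 ± 5.19 to 94.5 ± 1.77 CPM (SD, n = 3 each, 2.52 ± 0.14, edgeR adjusted p = 6.7e-17), and a locus on the other strand lies over 86.6% of it. HSP90.1 rose from 88.3 to 254 CPM (1.52) and HOP3, a co-chaperone that links HSP70 and HSP90, from 9.81 to 48.01 (2.296). The chloroplast HSP21 (2.71), the mitochondrial HSP23.6-MITO (1.58) and the BAG domain protein BAG6 (2.54) rose as well. Among the regulators, HSFA2, a heat-induced activator, rose from 5.02 to 9.32 CPM (0.89 ± 0.25, adjusted p = 0.0039) and DREB2A by 1.33. HSFB1, a repressor-type heat shock factor, was the member that fell (−0.38 ± 0.063, adjusted p = 7.8e-06), from 801 to 617 CPM. HSFA7A (0.26, adjusted p = 0.39) and HSFB2A (−0.17, 0.4) did not pass.

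Chaperones of the endoplasmic reticulum (ER) fell more often than they rose. Of 12 tested, 1 rose and 5 fell (median −0.15), so 50% passed against 38% of all genes. bZIP60, the factor that drives the unfolded protein response, stood at 504, 439.6 and 486 CPM in Col-0 and 273, 273 and 266 in mta (−0.82 ± 0.075, edgeR adjusted p = 4.7e-11), with no overlap between groups, and 26.7% of its length lies under a locus of the opposite strand. SDF2, needed for receptor quality control, changed by −0.599 and the co-chaperone ERDJ3B by −0.54, and both passed. SHD, the ER HSP90, was the one that rose (0.46), and it did not pass without Col-0 flg22 replicate 1 (0.26, adjusted p = 0.075), by DESeq2 (0.42, adjusted p = 0.13) or with a trend on gene length removed (0.26, adjusted p = 0.052). The HSP70 chaperones BIP1 (0.084), BIP2 (−0.085) and BIP3 (0.299) did not pass, at adjusted p of 0.46, 0.42 and 0.073.

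Genes of flagellin perception and early signalling fell in mta more often than they rose. Of 25 receptors and kinases tested, 12 fell and 3 rose (median −0.24). Of all genes 19.9% fell and 18.1% rose. BAK1 stood at 448, 397 and 422 CPM in the Col-0 libraries and 219, 231 and 222 in the mta libraries. Every mta library was far below the lowest Col-0 library (−0.91 ± 0.072, edgeR adjusted p = 1.1e-12). PBL1, a cytoplasmic kinase that acts beside BIK1, went from 156, 170.3 and 167 to 83.7, 86.5 and 90.8 CPM (−0.92 ± 0.086) and BIK1 itself changed by −0.62. The MAP kinase kinase MKK4 (−0.78), MPK4 (−0.52), the chitin receptor kinase CERK1 (−0.61) and the NADPH oxidase RBOHD (−0.34) fell too, with a locus on the other strand over 35.7% of MPK4. The flagellin receptor FLS2 did not pass (−0.24, adjusted p = 0.074). RBOHF, another NADPH oxidase, was higher (0.71 ± 0.14, adjusted p = 6.1e-05), as was IOS1, a receptor kinase (0.36), which did not pass by DESeq2 (0.32, adjusted p = 0.052). RBOHF did not pass once a trend on gene length was removed (0.26, adjusted p = 0.14).

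Negative regulators of PTI were lower as well. Of 7 tested, 6 fell and 0 rose (median −0.44), so 85.7% passed against 38% of all genes. The ubiquitin ligases PUB22 and PUB23, which dampen PTI, stood at 528 ± 17.8 and 691 ± 35.7 CPM in Col-0 and at 340.3 ± 8.69 and 439 ± 20.1 in mta (SD, n = 3; −0.63 and −0.65). PUB24 changed by −0.54 and AP2C1, a phosphatase of MAP kinases, by −0.44. PUB23 overlaps a locus of the opposite strand over 54.8% of its length.

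Of 9 genes commonly used as PTI readouts, 6 fell and 2 rose (median −0.22), so 88.9% passed against 38% of all genes. PROPEP3, the precursor of a danger peptide, stood at 729.7, 727 and 891 CPM in Col-0 and 359, 346 and 386 in mta (−1.11 ± 0.085, edgeR adjusted p = 5.1e-13). The lowest Col-0 library was well above the highest mta library. PROPEP2 (−0.78) and PROPEP1 (−0.78) were lower too. ABCG40, an ABC transporter, was higher, at 637, 739 and 642 CPM in Col-0 and 1049, 1026 and 1034 in mta (0.62 ± 0.068, adjusted p = 2.3e-09). FRK1, the receptor kinase that serves as a standard flg22 marker, differed by 0.33, which did not pass without Col-0 flg22 replicate 3 (0.204, adjusted p = 0.064). NHL10 did not pass (−0.17, adjusted p = 0.1).

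**Figure D2:**
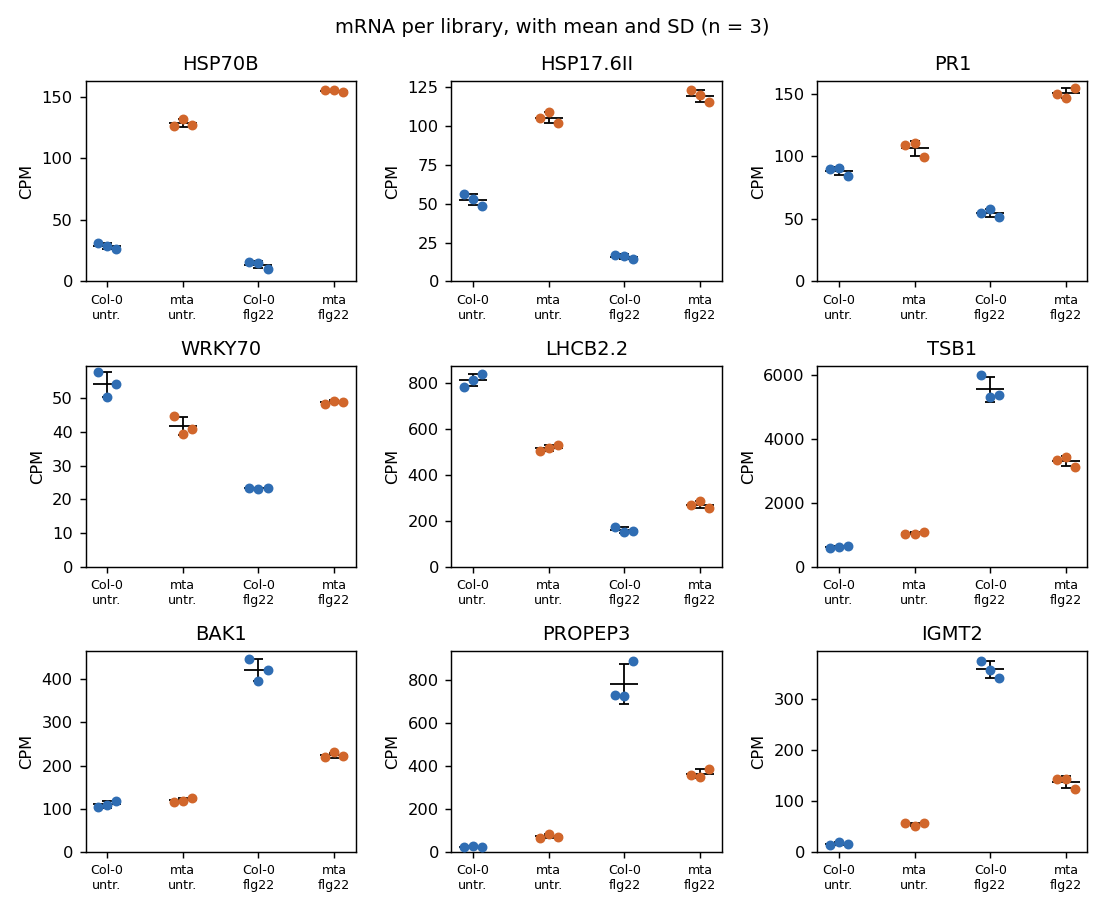
CPM per library (y axis, linear, from 0) of 9 genes in untreated (untr.) and flg22-treated Col-0 (blue) and mta (orange), with the mean and SD of 3 libraries. Under flg22, HSP70B, HSP17.6II, PR1, WRKY70 and LHCB2.2 lie higher in mta, and TSB1, BAK1, PROPEP3 and IGMT2 lower.

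The pathway that feeds indole defence compounds was lower in mta. Of 8 tryptophan synthesis genes 7 fell and 0 rose (median −0.58), so 87.5% passed against 38% of all genes. TSB1, a tryptophan synthase beta subunit (chromosome 5, 22264594 to 22266902, minus strand), stood at 6016, 5305 and 5384 CPM in Col-0 and 3350.1, 3425 and 3124 in mta (−0.76 ± 0.057, edgeR adjusted p = 3.7e-13). Its partner subunit TSA1 went from 3469 ± 142 to 2077 ± 9.42 CPM (SD, n = 3, −0.74), TSB2 changed by −0.79 and the listed locus AT2G04400 by −0.91. ASA1, the first committed enzyme, changed least of those that passed (−0.22 ± 0.062, adjusted p = 0.0056). PAI1 did not pass (0.22, adjusted p = 0.52).

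Enzymes of camalexin and indole carbonyl nitriles, the indole phytoalexins, followed: 7 of 9 fell and 1 rose (median −0.36). The share that passed was 88.9%, against 38% of all genes. CYP79B3, which turns tryptophan into indole acetaldoxime, went from 391, 340.4 and 338 to 211, 202 and 205 CPM (−0.79 ± 0.077, edgeR adjusted p = 1.5e-10). GGP1, which processes the glutathione conjugate, changed by −0.65, and PAD3, which completes camalexin, by −0.35. The paralogs CYP82C2 and CYP82C3 moved apart. CYP82C2, which hydroxylates indole carbonyl nitriles, rose from 574, 563 and 568 to 921, 952 and 961 CPM (0.73 ± 0.073), and CYP82C3 fell from 73.4, 65.2 and 78.9 to 32.5, 30.5 and 47.5 (−0.98 ± 0.15). CYP71A13, of camalexin synthesis, did not pass (0.13, adjusted p = 0.17).

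For indole glucosinolates, sulphur compounds that are activated on attack, 8 of 15 fell and 3 rose (median −0.39). The share that passed was 73.3%, against 38% of all genes. IGMT2, a methyltransferase that makes 4-methoxy forms, stood at 376, 357 and 342 CPM in Col-0 and 144, 143 and 124 in mta (−1.39 ± 0.083, adjusted p = 8.8e-16). This was the largest decrease in the list, with the groups far apart. IGMT1 (−0.89), the sulphotransferase SOT16 (−0.86) and CYP83B1, which channels the aldoxime into glucosinolates (−0.79), fell too. CYP81F4, of 1-methoxy glucosinolate synthesis, rose from 9.16, 4.49 and 6.66 to 13.97, 17.8 and 21.1 CPM (1.36), although a locus on the other strand covers all of it. The median of the indole phytoalexin list was −0.22 and of this list −0.24 with the trend on gene length removed.

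Salicylic acid genes went both ways. Of 24 tested, 9 rose and 6 fell (median 0.15), so 62.5% passed against 38% of all genes. On the side of synthesis and its regulators, ICS1, the isochorismate synthase, went from 88.1 ± 4.24 to 60.7 ± 7.65 CPM (SD, n = 3, −0.54 ± 0.11, edgeR adjusted p = 9.1e-05). The exporter EDS5 stood at 141, 139 and 113 CPM in Col-0 and 72.5, 73.1 and 75.4 in mta (−0.83 ± 0.096), and the regulator CBP60g changed by −0.46. PBS3, the next enzyme, was higher (0.59), from 76.2 to 114 CPM. The receptor NPR1 (−0.503) and the NPR1 partners GRX480 (−0.96) and NIMIN-2 (−0.72) were lower.

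Genes of salicylic acid output and turnover were among those that rose. PR1, a secreted defence protein (chromosome 2, 6241640 to 6242541, minus strand), stood at 54.3, 57.6 and 51.6 CPM in Col-0 and 149.9, 146 and 155 in mta (1.46 ± 0.084, edgeR adjusted p = 2.7e-16). All mta libraries lay far above all Col-0 libraries. PR2 (0.702) and PR5 (0.78) rose from means of 15.8 and 13.98 CPM. Of the genes that inactivate salicylic acid, the glucosyltransferase UGT74F2 went from 84.4, 88.1 and 76.5 to 209, 202 and 217 CPM (1.33 ± 0.075, adjusted p = 1.7e-16). The hydroxylases DLO1 (1.49) and DMR6 (0.69) rose too. FMO1, which makes N-hydroxypipecolic acid, went from 7.65 to 14.2 CPM (0.89). EDS1 (0.37) and PAD4 (−0.24) did not pass, at adjusted p of 0.061 and 0.12.

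Jasmonate genes fell more often than they rose: 15 of 28 fell and 2 rose (median −0.28), so 60.7% passed against 38% of all genes. AOC1, an allene oxide cyclase, stood at 141, 129.9 and 133 CPM in Col-0 and 61.1, 66.4 and 57.6 in mta (−1.13 ± 0.0903, edgeR adjusted p = 1.5e-12). The lipoxygenase LOX4 (−0.95), the allene oxide synthase AOS (−0.77) and the repressor JAZ8 (−0.69) fell, while LOX2 (0.71) and TAT3, a jasmonate-induced aminotransferase (0.87), rose. With the trend on gene length removed, 11 fell and 6 rose. For ethylene, 9 of 22 fell and 3 rose (median −0.11), a share of 54.5%. Those that fell included the response factor ERF5 (−0.91) and the synthesis enzymes ACS7 (−0.71) and ACS8 (−0.66).

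WRKY factors, which read out both PTI and salicylic acid, also divided. Of 32 tested, 15 fell and 6 rose (median −0.198, and −0.048 with the trend on gene length removed). The share that passed was 65.6%, against 38% of all genes. WRKY55 (−1.06), WRKY28 (−0.95), WRKY7 (−0.92), WRKY29 (−0.78) and WRKY22 (−0.68) fell. WRKY70, which acts in salicylic acid signalling, stood at 23.2, 23.1 and 23.5 CPM in Col-0 and 48.4, 49.3 and 48.97 in mta (1.07 ± 0.11, edgeR adjusted p = 6.3e-10). Libraries within each group were nearly equal. WRKY38 (0.95) and WRKY18 (0.81) were higher, and WRKY33, of camalexin regulation, did not pass (−0.11, adjusted p = 0.18).

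Of 11 intracellular NLR immune receptors tested, 4 rose and 0 fell (median 0.13), a share of 36.4% near the 38% of all genes. RPP13, a receptor for downy mildew, stood at 17.95, 36.7 and 19.8 CPM in Col-0 and 55.7, 58.4 and 56.7 in mta (1.21 ± 0.16, adjusted p = 2.1e-07), and RPS2 changed by 0.64. A locus on the other strand lies over 36.9% of RPP13 and over all of RPS2. RRS1 (0.68) did not pass with the trend on gene length removed (0.26, adjusted p = 0.14). Of 11 cysteine-rich receptor kinases 2 rose and 2 fell (median 0.19, and −0.053 without mta flg22 replicate 3), also a share of 36.4%. CRK4 stood at 0.272, 1.53 and 0.873 CPM in Col-0 and 4.499, 5.57 and 3.64 in mta (2.38), and CRK11 was lower (−0.503).

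Light-harvesting antenna genes were higher in mta. Of 15 tested, 9 rose and 1 fell (median 0.33), so 66.7% passed against 38% of all genes. LHCB1.1 and LHCB1.2 had 0 counts and were not tested. LHCB2.2, an antenna protein of photosystem II, stood at 175, 152 and 154 CPM in Col-0 and 270.1, 285 and 254 in mta (0.75 ± 0.069, edgeR adjusted p = 3.8e-11), without overlap. LHCB2.3 (0.87), LHCB4.2 (0.74) and LHCB3 (0.60) rose, and LHCB4.1 was the member that fell (−0.38 ± 0.065, adjusted p = 1.1e-05). A locus on the other strand lies over 65.7% of LHCB3 and 37.6% of LHCB2.3. Photosystem subunits and enzymes of carbon fixation went both ways, with 7 of 27 higher and 11 lower (median −0.0203), also a share of 66.7%. PSAD-1, of photosystem I, rose from 163 ± 21.6 to 257 ± 16.8 CPM (0.66), and PETC, the Rieske protein, fell from 368 ± 26.4 to 219 ± 6.21 (−0.75). With the trend on gene length removed the counts were 13 and 1 for the antenna and 15 and 9 for the other list, whose median turned to 0.21 and was also above 0 with upper quartile scaling.

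Phenylpropanoid and lignin genes had 5 of 19 higher and 6 lower (median −0.095), so 57.9% passed against 38% of all genes. PAL4, one of the entry enzymes, rose from 75.2, 56.9 and 67.98 to 103, 118 and 114 CPM (0.74 ± 0.11, edgeR adjusted p = 2.3e-06), while PAL1 (−0.045) and PAL2 (−0.052) did not pass. F6'H1, of scopoletin synthesis, rose (0.49) and the lignin enzymes CCR2 (−0.78) and CCR1 (−0.54) fell, with a locus on the other strand over 79.1% of CCR1. Flavonoid and anthocyanin genes had 4 of 12 higher and 1 lower (median 0.63, which turned to −0.092 with a stricter filter on low counts). Their share of 41.7% was near that of all genes. LDOX, of anthocyanin synthesis, stood at 0.544, 0.328 and 2.62 CPM in Col-0 and 3.83, 3.47 and 3.64 in mta (1.66), and PAP2, an anthocyanin regulator, at 0, 0 and 0.109 and 0.861, 0.631 and 2.39, too few counts in Col-0 for a fold. TT5, chalcone isomerase, fell (−0.83). Of 12 glutathione S-transferases 3 rose, led by GSTU3 (1.14), and 5 fell (median −0.13), a share of 66.7%. With the trend on gene length removed 4 were higher and 2 lower, and the median turned to 0.12. GSTU11 (−0.41) and GSTU12 (−0.31) did not pass with the trend on gene length removed (−0.14 and −0.045, adjusted p = 0.099 and 0.71).

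Genes of the m6A machinery changed singly. Of 20 tested, 6 rose and 2 fell (median 0.18), a share of 40% near the 38% of all genes. ALKBH10B, the demethylase, stood at 256, 226 and 211 CPM in Col-0 and 171, 179 and 177 in mta (−0.39 ± 0.076, edgeR adjusted p = 7.4e-05). The mta libraries lay just below the lowest Col-0 library. The listed locus AT1G48980 fell from 6.62, 7.66 and 7.42 to 4.02, 1.68 and 2.91 CPM (−1.32). Of the writer complex, FIP37 was higher (0.52 ± 0.16, adjusted p = 0.0083), although its groups overlapped, and MTB, the partner of MTA, did not pass (0.17, 0.38). VIR, the largest subunit, was higher at 50.5, 45.5 and 40.3 against 79.1, 66.4 and 73.5 CPM (0.68), but not with the trend on gene length removed (−0.0501, adjusted p = 0.76). The readers ECT8 (0.67) and ECT11 (0.67) were higher, and ECT2 did not pass (−0.15, adjusted p = 0.086).

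RNA decay genes had 6 of 19 higher and 2 lower (median 0.13), a share of 42.1% near the 38% of all genes. XRN2, a nuclear 5′ to 3′ exonuclease, stood at 25.7, 35.03 and 28.7 CPM in Col-0 and 74.4, 65.4 and 63.7 in mta (1.19 ± 0.11, edgeR adjusted p = 5.1e-11), and the cytoplasmic XRN4 was higher (0.45). CAF1A, a deadenylase subunit, was lower (−0.45). The decapping factors DCP1 (−0.035), DCP2 (0.16) and VCS (0.041) did not pass. With the trend on gene length removed 2 were higher and 4 lower, and the median turned to −0.064.

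Markers of other cell types were set beside these lists. Of 8 root markers tested 0 rose and 0 fell, where 38% of all genes passed. Their median was 0.497, with members from −0.21 to 4.21. The summed level of all 12 listed was 45.5 to 53.5 CPM in Col-0 and 44.2 to 49.9 in mta. Of 8 guard cell markers tested 1 passed, a share of 12.5% (median 0.42). Sums over all 9 listed were 43.7 to 49.9 CPM in Col-0 and 52.4 to 68.1 in mta. Of 10 seed markers 1, EM6, could be tested, with sums over the list of 4.49 to 6.33 CPM in Col-0 and 0.52 to 2.58 in mta. Of the untested members SESA1 had the highest Col-0 mean, 0.27 CPM, so the Col-0 sums were mostly EM6. EM6 was lower in mta (−1.86). It did not pass without Col-0 flg22 replicate 3 (−1.64, edgeR adjusted p = 0.055) or without mta flg22 replicate 3 (−1.47, 0.071). Untreated, the sums were 0 to 0.77 CPM in Col-0 and 0.19 to 1.03 in mta. In whole seedlings fewer cells of a type and less RNA per cell cannot be told apart.

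How the genotype difference under flg22 stood against the difference without flg22 was tested by the interaction, the log2 fold change under flg22 minus that in untreated seedlings. It passed in 3799 genes (19.1%), 1375 positive (6.91%) and 2424 negative (12.2%). At least 2-fold, 395 were positive (1.99%) and 889 negative (4.47%). With upper quartile scaling the split was 2007 positive and 2006 negative, and with the trend on gene length removed 1969 and 2148. Untreated, 6580 genes passed (33.1%), 3590 higher (18.1%) and 2990 lower (15%), and at least 2-fold 913 were higher (4.59%) and 178 lower (0.895%). Of the genes called under flg22, 40.9% passed in the same direction untreated, which is 47.04% of the untreated calls. Another 671 were higher untreated and lower under flg22, and 146 the reverse.

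Several defence lists had a median above 0 in untreated mta and below 0 under flg22. The median of the indole phytoalexin list went from 1.94 untreated to −0.36, with 9 of 9 interactions negative and 0 positive. Tryptophan synthesis went from 0.82 to −0.58 (7 negative, 0 positive) and PTI response genes from 1.48 to −0.22 (8 and 0). PTI receptors and kinases (16 negative, 0 positive), WRKY factors (17 and 4), jasmonate (14 and 2), phenylpropanoids (17 and 0) and glutathione S-transferases (10 and 0) had mostly negative interactions. The antenna list went the other way, from −0.604 to 0.33, with 14 of 15 positive and 0 negative. Heat shock genes were higher in both conditions, at medians of 1.204 and 1.87 (9 positive, 1 negative).

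**Figure D3:**
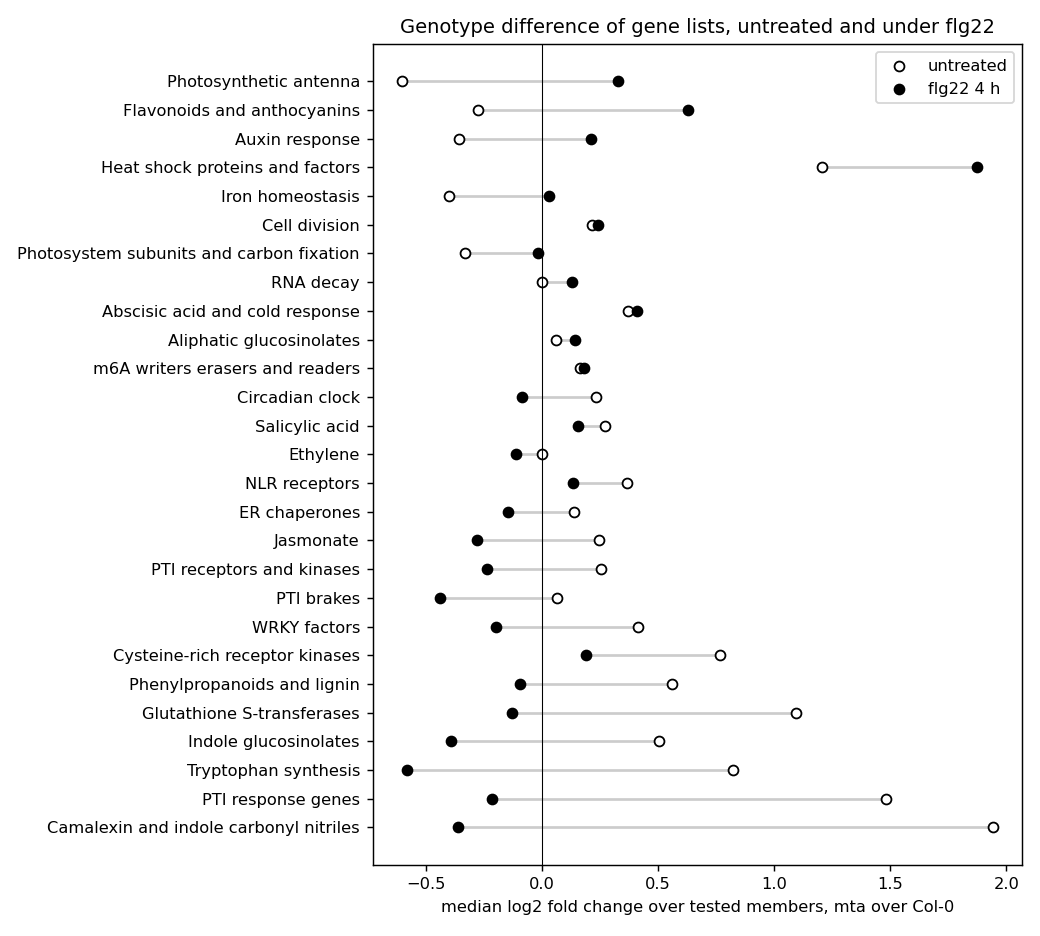
Median log2 fold change of mta over Col-0 (x axis) over the tested members of each list, untreated (open) and under flg22 (filled). Indole phytoalexins run from 1.94 to −0.36 and the photosynthetic antenna from −0.604 to 0.33.

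Single genes show the range. AT4G28420 stood at 2.72 and 31.1 CPM in untreated Col-0 and mta and at 342 and 264 under flg22, an interaction of −3.92 ± 0.17 (edgeR adjusted p = 4.7e-20). BGLU27, a beta-glucosidase, stood at 2.599 and 42.3 CPM untreated and 85.6 and 103 under flg22 (−3.75 ± 0.17). On the positive side, WRKY38 stood at 15.8 and 4.74 CPM untreated and 5.24 and 10.2 under flg22 (2.68 ± 0.31, adjusted p = 8.6e-09). AT3G28540 (2.32), MYB45 (2.23) and AT1G18830 (2.02) were about equal between genotypes untreated and higher in mta under flg22.

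Uncapped RNA, from GMUCT libraries that capture mRNA without a 5′ cap such as decay intermediates, was measured in other libraries of the same groups (13437761 to 36048369 reads). Of 19277 genes tested 556 passed (2.88%), 464 higher in mta (2.41%) and 92 lower (0.477%), with a median of 0.19 on the log2(RPM + 1) scale, which understates changes of low genes. The excess of higher calls depended on the test, since edgeR on the recovered whole reads called 302 higher and 325 lower. Of the 7565 genes called in mRNA, 7127 were measured in uncapped RNA, where 370 passed, 355 of them in the same direction. Heat shock genes were higher here as well. Of 20 tested 16 were higher and 0 lower, with a median of 1.69. HSP70B stood at 23.1, 19.03 and 19.8 RPM in Col-0 and 149, 142 and 144 in mta (2.76 ± 0.25, limma adjusted p = 1.6e-06), with all mta libraries above all Col-0 libraries. PR1 stood at 31.9, 42.0 and 42.4 and 179, 175 and 189 RPM (2.21 ± 0.16, adjusted p = 7.5e-08) and LAC7 at 2.23, 3.51 and 4.001 and 38.8, 31.04 and 36.4 (3.12).

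In uncapped RNA few genes pass at all, and of genes simulated with a change of 0.5 on the log2 scale 4% were recovered. Of 8 tryptophan synthesis genes 0 were higher and 0 lower (median −0.304, against 0.19 for all genes), and TSB1 stood at 2142, 3029 and 3050.5 RPM in Col-0 and 2577, 2275 and 2116 in mta (−0.22, limma adjusted p = 0.77). BAK1 stood at 641, 605 and 584 and 394, 354 and 376 RPM (−0.702 ± 0.22, adjusted p = 0.088), apart in every library yet not past the threshold. The number of calls depends on the libraries, with 148 to 433 when 1 was left out and 2230 when the 6 flg22 libraries were fitted alone.

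**Figure D4:**
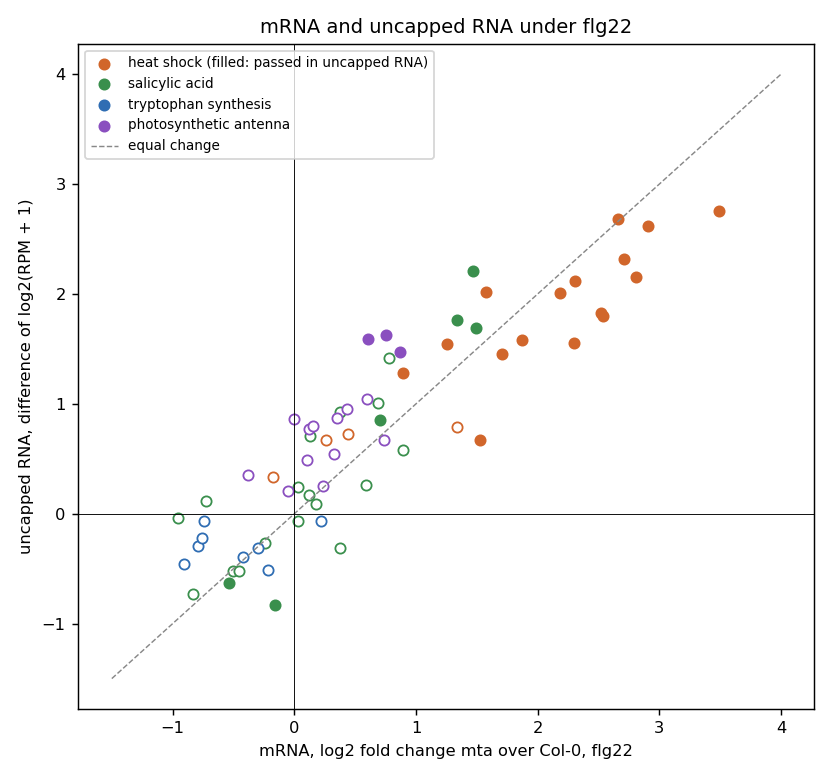
Log2 fold change in mRNA (x axis) and difference of log2(RPM + 1) in uncapped RNA (y axis), mta over Col-0 under flg22, for 4 lists, filled where the limma adjusted p in uncapped RNA was under 0.05. Heat shock genes lie in the upper right, with medians of 1.87 and 1.69.

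m6A peaks deposited for other libraries of the same groups were set beside the mRNA. A peak in all 3 Col-0 flg22 libraries was present in 42.1% of all tested genes, 42.1% of those higher in mta and 74.2% of those lower. In all 3 mta flg22 libraries the shares were 37.5, 43.1 and 64.7%. The lower genes were also more abundant, with a median of 54.1 CPM against 17.3 for the higher and 14.5 for all. The part of abundance in these shares was not tested. Genes with and without a peak were also compared within 20 bins of expression, of which 16 held enough genes. The difference of log2 level was 0.01, 0.09 and 0.06 in the Col-0 libraries and −0.01, −0.04 and −0.04 in mta, so the groups did not overlap (mean difference −0.09, exact two-sided permutation p = 0.1, the smallest that 3 against 3 libraries allow). With stricter peaks it was 0.0047, so its direction depended on the peaks used. With bins of gene length in place of expression it was −0.40, from means of 2.77 in mta and 3.17 in Col-0. In those bins genes with a peak were thus far more abundant than genes without one in both genotypes. In the heat shock list 14 of 21 genes had a peak in all Col-0 and 18 in all mta libraries. Of all tested genes 42.1 and 37.5% did. The part of the different RNA levels of heat shock genes in these counts was not tested.

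mRNA differences followed gene length. In 10 equal groups of the tested genes by length, the median log2 fold change was −0.197 in the shortest and 0.41 in the longest, and untreated −0.103 and 0.35. At least 2-fold, 61 genes were higher and 146 lower in the shortest group, and 247 and 8 in the longest. The log2 level of the longest against the shortest group, relative to the mean of all 12 libraries, was −0.38, −0.11 and −0.43 in Col-0 and 0.25, 0.28 and 0.33 in mta under flg22 (exact two-sided permutation p = 0.1, the smallest possible). Uncapped RNA had medians of 0.297 and 0.21. The part of this trend in the results above was not tested beyond removing it: 6916 genes passed then, 3471 higher and 3445 lower, and the heat shock median was 1.88.

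**Figure D5:**
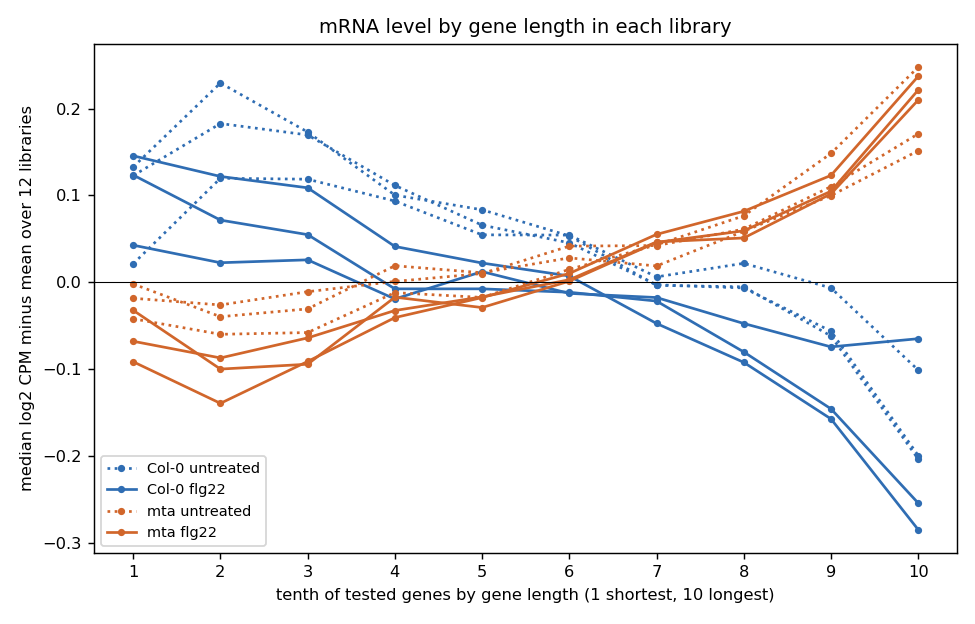
Median log2 CPM minus the mean over 12 libraries (y axis) in 10 equal groups of the tested genes by length (x axis), 1 line per library. The longest group stands above the shortest in every mta library and below it in every Col-0 library.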

How the data were processed

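For seedling mRNA the authors deposited whole read counts per feature, from paired-end libraries of RNA selected 2 times for poly(A), per the labels' protocols, made with featureCounts 2.0.1 per the file headers. Per the submitters' processing notes, STAR and MACS2 were used with the TAIR10 build. For uncapped RNA the authors deposited RPM, and 100% of the values divide back into whole reads within 0.01. For m6A the authors deposited peaks with a fold enrichment (ratio) and −log10 q per library.

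edgeR 4.0.16 in R 4.3.3 fitted the 12 mRNA libraries in 4 groups (TMM, filterByExpr, quasi-likelihood, Benjamini-Hochberg, threshold 0.05). limma 3.58.1 fitted log2(RPM + 1) of 18 GMUCT libraries for genes with an RPM of 1 in at least 3. These were the untreated and flg22 libraries of Col-0, mta and the 35SALKBH10B line, which share the estimate of spread. DESeq2 1.42.0 served as an alternative. Tests were checked on simulated counts, where 72% of genes changed by 1 on the log2 scale were recovered for the mRNA comparison (19591 genes). Each peak summit went to the gene on the strand opposite to its list, where at least 99.2% of summits fell in a gene. Another 12 count columns were not used.

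Members, the 30 gene lists (492 genes, 442 tested) and the tests were chosen with earlier results of these data known. Named genes are the 15 largest changes per direction (separate groups, mean of at least 5 CPM, under 20% overlap with other loci), up to 3 per list and direction, 5 interactions per direction and the 5 most abundant with a 2-fold change, besides MTA and members a sentence needs. Symbols come from RefSeq. Replicate numbers did not pair libraries, with correlations of −0.075 to 0.053.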

Additional observations from a re-analysis of the deposited data

Results flagged for a closer look

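The genotype difference under flg22 was tested against that in untreated seedlings by the edgeR interaction (log2), and the genes named for size or abundance that passed are given here. It was positive, so mta stood higher relative to Col-0 under flg22 than untreated, for WRKY38 (2.68), AT3G28540 (2.32), MYB45 (2.23), AT1G18830 (2.02), ATHSP22.0 (1.93), HSP17.6II (1.905), AT2G29500 (1.85), NET2D (1.53), AGD2 (1.53), LAC7 (1.46), AT1G53540 (1.43), HSP21 (1.34), HSP70B (1.34), HSP17.6A (1.201), AT1G67120 (1.07) and AT4G12490 (1.03). It was negative for AT4G22640 (−4.98), AT2G15780 (−3.93), AT4G28420 (−3.92), BGLU27 (−3.75), AT5G55150 (−3.03), AT4G08555 (−2.87), AT3G24420 (−2.08), ATCG00020 (−1.92), AT2G32020 (−1.88), ATCG00490 (−1.85), AT1G02360 (−1.75), AT1G23140 (−1.601), BAM5 (−1.59), AT5G35735 (−1.501) and AT4G01700 (−1.43). The 2 chloroplast loci among them, ATCG00490 and ATCG00020, did not pass without Col-0 flg22 replicate 1 (−0.13 and −0.15, adjusted p = 0.72 and 0.69). ATCG00490 also did not pass without mta untreated replicate 3 (−1.68, adjusted p = 0.057). By DESeq2 the interactions of AT1G67120 (1.02, adjusted p = 0.071) and ATCG00020 (−1.95, adjusted p = 0.2048) did not pass. UGT84B1 had −8.16, a fitted value against untreated Col-0 libraries that are all at 0 counts, so it depends on the prior count and is no bound. In data outside the comparisons, the noncoding feature At3NC056200 held 5.12% of all counts of Col-0 flg22 replicate 1, above the 0.303 to 0.998% of the other libraries.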

How the results depend on the processing

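Depth limits genes of low CPM, strands may not be separated, and the trend with gene length and Col-0 flg22 replicate 1 bear on named results. With all annotated features tested, 11406 genes passed under flg22 (6012 lower; 1809 higher and 731 lower at least 2-fold), 9964 untreated (5403 higher, 4561 lower; 1524 and 308 at least 2-fold), and 652 positive and 1436 negative interactions were at least 2-fold. With the length trend removed, an alternative chosen after seeing the data like the peak in all 6 libraries and the bins of gene length, 252 genes were lower at least 2-fold. DESeq2 called 7671 genes and the replicate block 7501, and a block changed no other count by over 1.5 times. Leaving out 1 library gave 6516 to 7811 calls under flg22.

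With the length trend removed the list medians were −0.39 for PTI brakes, −0.35 for PTI response, −0.048 for WRKY, −0.22 for camalexin, −0.24 for indole glucosinolates, 0.37 for salicylic acid, −0.19 for jasmonate, −0.024 for ethylene, 0.57 for antenna, 0.21 for photosystems, 0.12 for glutathione S-transferases, 0.399 for auxin, 0.38 for cell division, 0.018 for m6A genes and −0.064 for RNA decay. Without loci overlapping the other strand they were −0.37 for PTI response, −0.37 for WRKY, −0.75 for tryptophan, −0.14 for photosystems and −0.29 for glutathione S-transferases. The last was −0.016 with no filter and −0.25 with the 6 flg22 libraries alone, flavonoids were −0.092 and root markers 0.068 with the stricter filter, and root markers 0.077 with 6 libraries. The causes were not tested, other than that fewer genes or libraries entered.

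When 1 library was left out, medians ranged from −0.497 to −0.43 for PTI brakes, −0.33 to −0.22 for PTI response, 0.12 to 0.28 for salicylic acid, −0.35 to −0.25 for jasmonate, −0.18 to −0.103 for ethylene, −0.053 to 0.302 for cysteine-rich receptor kinases, −0.31 to −0.066 for ER chaperones, −0.24 to −0.12 for glutathione S-transferases, 0.32 to 0.55 for abscisic acid, 0.204 to 0.37 for cell division, 0.0022 to 0.16 for RNA decay and 0.36 to 0.79 for root markers. Uncapped calls ranged from 148 to 433 (134 to 390 higher, 14 to 43 lower), were 2230 with 6 libraries alone (1705 higher, 525 lower), and edgeR on the recovered whole reads called 302 higher and 325 lower. The peak difference reversed to 0.0047 with peaks of q up to 1e-05 and to 0.0056 with a peak in all 6 libraries. It was −0.40 with bins of gene length, which do not match abundance. Of 197 results for named genes 165 kept their call in each setting that was run for them, which was not all settings for all genes. The call was lost in at least 1 setting for 30, AT2G15780 gained one with the length trend removed, and VIR changed direction with the length trend removed (−0.0501).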

Other observations

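Hormone, development and metabolic genes outside the defence lists are given beside the 38% of all genes that passed. Of 9 auxin response genes tested 3 were higher in mta under flg22 and 1 lower (median 0.21). GH3.3 and GH3.2, which conjugate auxin to amino acids, stood at 32.3, 23.9 and 27.3 and 118, 115 and 104 CPM in Col-0 and at 47.7, 48.4 and 58.3 and 189.7, 193 and 187 in mta (0.88 and 0.76), and IAA19, a repressor of auxin response, was lower (−1.51). Of 7 abscisic acid and cold genes 3 were higher and 1 lower (median 0.41), with the stress marker RD29A at 3.26, 3.17 and 3.16 and 7.27, 12.4 and 10.5 CPM (1.64 ± 0.24, edgeR adjusted p = 9.3e-07) and KIN1, a cold-induced gene, lower (−1.104). Of 12 cell division genes 3 were higher and 0 lower (median 0.24), among them KNOLLE, of cell plate fusion (1.402).

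Clock genes had 5 of 16 higher and 2 lower (median −0.087). The morning repressor PRR7 stood at 22.03, 39.2 and 31.4 CPM in Col-0 and 71.4, 70.02 and 74.3 in mta (1.23 ± 0.15, edgeR adjusted p = 2.1e-08), PRR9 changed by 1.47, and the evening genes TOC1 (−0.59) and LUX (−0.75) were lower. LUX overlaps a locus of the opposite strand over 40.3% of its length. Of 14 aliphatic glucosinolate genes 3 were higher and 1 lower (median 0.14, and −0.0044 without Col-0 flg22 replicate 3), with MAM3, of side chain elongation, higher (0.75) and FMO GS-OX1, an S-oxygenase, lower (−1.26). Of 10 iron genes 2 were higher and 1 lower (with a median near 0 whose sign changed with the scaling and the libraries), with NAS1, a nicotianamine synthase, at 0.544, 1.53 and 1.85 and 3.64, 3.57 and 4.05 CPM (1.55).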
